A study of Mus musculus with 4 samples.

Results

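The 37 genes described here act in hepatic fatty acid oxidation or are controlled by PPARα, and were taken by symbol from the 32285 annotated mouse genes in the deposited count matrices. All 37 symbols were found, each once. For the account below they were placed in 7 role groups: 3 regulators, 6 genes of fatty acid uptake and activation, 4 of the carnitine shuttle, 9 of mitochondrial and 4 of peroxisomal beta oxidation, 4 acyl-CoA thioesterases, and 7 genes of lipid droplets, secreted factors and other PPARα targets.

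PPARα is a nuclear receptor that binds fatty acids, pairs with the retinoid X receptor and activates genes for taking up and burning fat in the fasted liver. Fatty acids are bound and activated to acyl-CoA in the cytosol, pass into mitochondria as carnitine esters, and are shortened there by the repeating steps of beta oxidation, while very long and branched chains are first shortened in peroxisomes. Much of the acetyl-CoA made in hepatocytes leaves the liver as ketone bodies.

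The study measured RNA in single nuclei of fresh-frozen livers from male mice with a deletion of Rbpj in hepatic progenitor cells (CKO, 2 libraries) and from male wild-type mice (WT, 2 libraries). Rbpj encodes the DNA-binding partner of the Notch receptors. All mice in both groups had eaten a diet with DDC, a hepatotoxin that injures bile ducts and causes a ductular reaction, for 4 weeks, starting at 10 to 11 weeks of age, so no library shows a liver without DDC. The labels used here name neither the Cre driver nor the deleted exons, do not say whether replicates are separate animals, and give no hour of collection or feeding state. P-values therefore measure only the spread between these libraries, which may be technical.

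The CKO libraries held 16000 and 5184 barcodes with 38003108 and 12261329 unique molecular identifiers (UMIs, single counted RNA molecules), and the WT libraries held 16000 and 6480 barcodes with 45620141 and 13914845 UMIs. Pairs of libraries shared 19 to 114 barcodes, at most 1.14% of a library. Nuclei with at least 3000 UMIs, of which at most 0.2% came from 75 nonparenchymal marker genes, are called hepatocyte-like. There were 763 and 839 of them in the CKO libraries and 1467 and 632 in the WT libraries, with summed UMIs of 4566073 and 3781502 against 9261275 and 3169624. The 12 hepatocyte markers gave this name only partial support: relative to the 10% of barcodes with the fewest UMIs in each library, 4 were higher and 8 lower in these nuclei, so hepatocyte RNA was also abundant in those barcodes. Mitochondrial RNA made up 1.61% and 0.284% of UMIs in CKO and 0.571% and 0.164% in WT hepatocyte-like nuclei. The targeted gene, Rbpj, stood at 63.9 and 46.5 CPM (UMIs scaled to a sum of 1000000 per library and class) in CKO and 62.2 and 47.6 CPM in WT hepatocyte-like nuclei. Cholangiocyte-like nuclei held 33 and 1 Rbpj UMIs in the CKO libraries and 165 and 24 in the WT libraries, or 77.5 and 25.4 CPM in CKO and 72.1 and 61.3 CPM in WT. A 3′ tag outside the deleted exons does not test the deletion, so these counts do not check the labels.

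Of the 37 genes, 34 had enough counts in hepatocyte-like nuclei to be tested, and none of the 34 was called between CKO and WT. The background was the same: edgeR's quasi-likelihood test with Benjamini-Hochberg adjustment called 0 of 12874 genes (0%), and the smallest adjusted p among the 34 was 0.9997. Without adjustment, 206 of all genes (1.6%) and 2 of the 34, Ppargc1a and Acot1, had a p under 0.05. The DESeq2 fit gave 2 calls over all genes, neither of them among the 37. The fitted log2 change, CKO over WT, was positive for 28 of the 34, with a median of 0.40, against 0.005 over all genes tested, of which 50.8% were positive. Both CKO libraries lay above both WT libraries for 5 of the 34, namely Hadhb, Etfdh, Acot1, Acot2 and Plin2, where 12.4% of all genes did so. Ppargc1a alone lay below in both, where 13% of all genes did so.

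The 2 CKO libraries were further apart than the 2 WT libraries for 30 of the 34 genes (88.2%), against 71.3% of all genes tested. The highest of the 4 libraries was CKO replicate 2 for 25 of the 34 (73.5%), against 33.1% of all genes. It was CKO replicate 1 for 5 of the 34 (14.7%), against 29.7% of all genes. Between the CKO libraries, replicate 2 minus replicate 1, the median log2 difference of the 34 was 0.81, whereas it was 0.09 between the WT libraries, replicate 2 minus replicate 1. The positive median change of the group as a whole therefore came with 1 library, and the account of each role group below gives both CKO values.

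**Figure D1:**
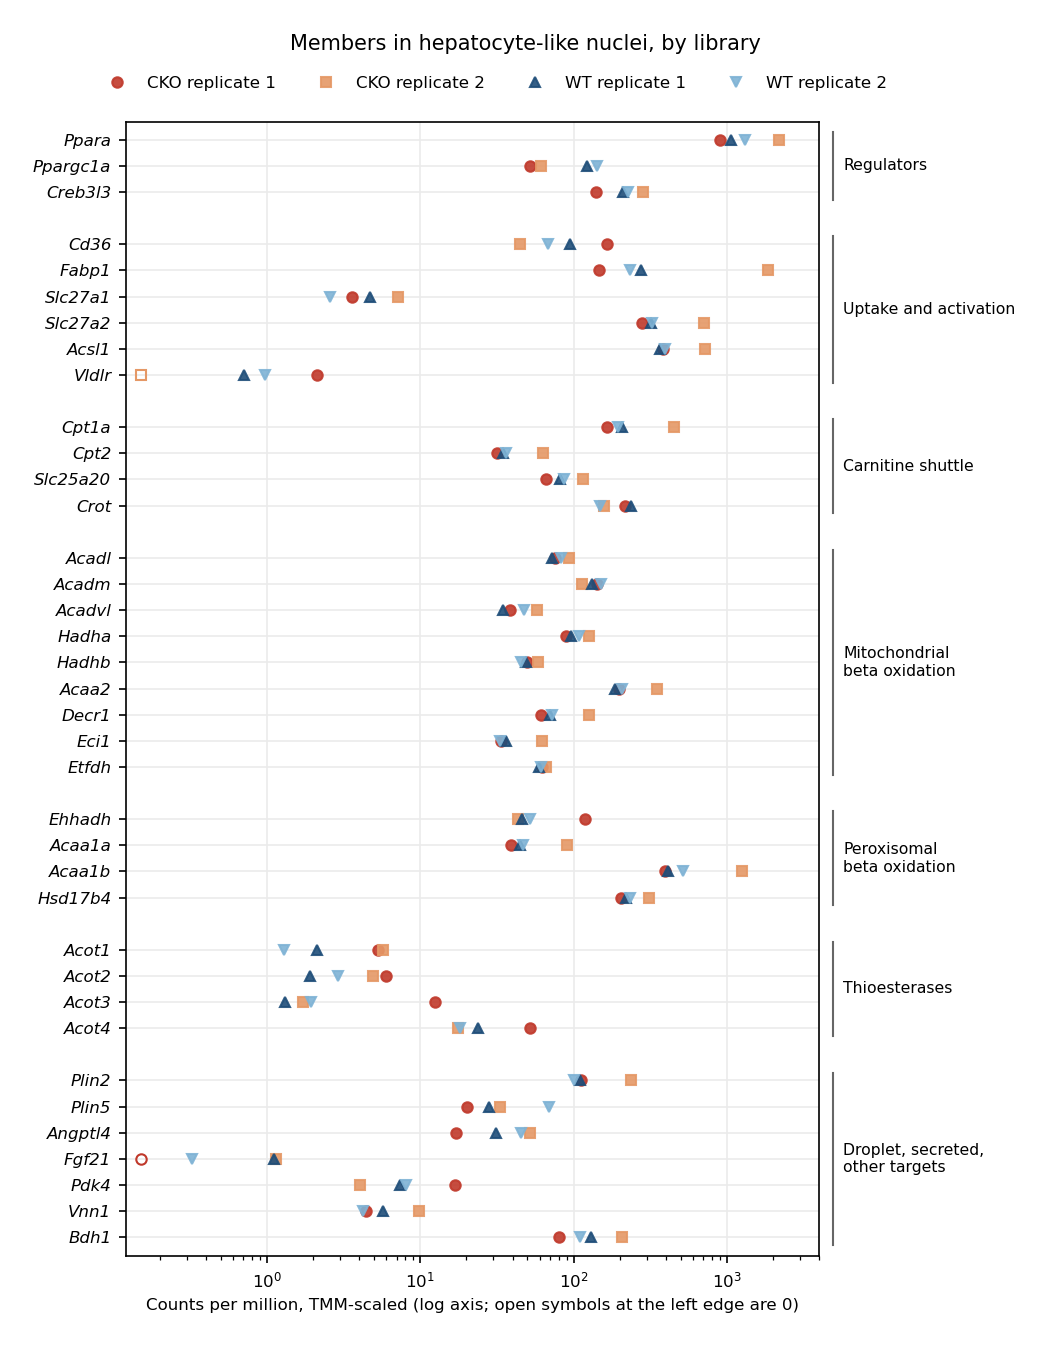
TMM-scaled CPM of each of the 37 genes in hepatocyte-like nuclei (horizontal log axis), 1 symbol per library, grouped by role, with open symbols at the left edge for a value of 0. CKO replicate 2 is the highest library for 25 of the 34 tested genes, while Ehhadh, Acot3 and Acot4 are highest in CKO replicate 1.

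Among the 3 regulators, the coactivator gene had the smallest unadjusted p. Ppargc1a (chr5:51454250-51567726, minus strand, GRCm38) encodes PGC-1α, which drives mitochondrial and fasting genes together with PPARα and other receptors. It stood at 52.1 and 61.8 CPM in CKO and at 122 and 142 CPM in WT hepatocyte-like nuclei. The groups did not overlap, and the replicates of each were close. The log2 change was −1.21 (SE 0.21), with an adjusted p of 0.9997 by edgeR. Ppara (chr15:85734983-85802819, plus strand), which encodes the receptor itself, stood at 903 and 2178 CPM in CKO and 1066 and 1318 CPM in WT, a log2 change of 0.37 (SE 0.50). The CKO values enclosed both WT values. Creb3l3, which encodes a liver membrane-bound transcription factor that acts with PPARα on Fgf21 in mice, stood at 140 and 285 CPM in CKO and 211 and 228 CPM in WT. It too had its lowest and its highest value in the CKO libraries, with a log2 change of −0.05 (SE 0.39).

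The genes of uptake and activation had the widest spread between the CKO libraries. Fabp1 (chr6:71199827-71205023, plus strand), which encodes the abundant cytosolic fatty acid-binding protein of the liver, stood at 147 and 1871 CPM in CKO and 278 and 232 CPM in WT. The CKO libraries differed 12.7-fold and lay on either side of WT, and the log2 change of 1.98 had an SE of 1.15. Slc27a2, an acyl-CoA synthetase for very long chains that also transports fatty acids, stood at 278 and 708 CPM in CKO and 318 and 324 CPM in WT. Acsl1, the main long-chain acyl-CoA synthetase of liver, stood at 383 and 722 CPM in CKO and 365 and 394 CPM in WT. Both genes stood out in CKO replicate 2 alone, with log2 changes of 0.62 (SE 0.49) and 0.54 (SE 0.37). Cd36, a fatty acid translocase, went the other way within CKO: it stood at 164 and 44.8 CPM in CKO, around the WT values of 95.0 and 68.6 CPM. The transporter gene Slc27a1 stood at 3.60 and 7.18 CPM in CKO and 4.71 and 2.59 CPM in WT. Vldlr, the receptor for very low density lipoprotein, had 10 and 0 UMIs in CKO and 7 and 3 in WT, too few to test. None of the 5 tested genes passed the test, and their log2 changes ran from 0.35 to 1.98.

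The start of Fabp1 is printed because this gene had the widest gap between the CKO libraries and was the only one of the 37 whose matched promoter held the pattern tried for the PPARα element. That pattern was a direct repeat with 1 base between, AGGNCANAGGNCA on either strand, and it occurred in 125 of 32851 RefSeq mouse promoters (0.381%). Promoters of 250 bases before to 50 after the start were found for 32 of the 37 genes. The stretch below, chr6:71199629-71199826, plus strand, from RefSeq GRCm38.p6, holds the first 198 of the 250 bases before the RefSeq start. It was cut where the GENCODE gene begins, at 71199827, so it stops short of the RefSeq start. Capitals mark the match, which lies on the opposite strand and opens at position −67 from the RefSeq start. A match in letters is a description and not a shown binding site.
Fabp1: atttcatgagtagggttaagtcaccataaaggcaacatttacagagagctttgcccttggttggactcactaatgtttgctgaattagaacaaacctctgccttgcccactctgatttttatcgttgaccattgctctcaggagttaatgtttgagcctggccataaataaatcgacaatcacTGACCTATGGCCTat

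In the carnitine shuttle, the pattern of CKO replicate 2 recurred. Cpt1a, the carnitine palmitoyltransferase of the outer mitochondrial membrane and the main control point of entry, stood at 165 and 455 CPM in CKO and 207 and 196 CPM in WT. Cpt2, its partner on the inner membrane, stood at 31.5 and 63.2 CPM in CKO and 34.8 and 36.2 CPM in WT. For both genes CKO replicate 2 was the highest library and CKO replicate 1 the lowest, with log2 changes of 0.62 (SE 0.51) and 0.41 (SE 0.38). Slc25a20, the carnitine-acylcarnitine carrier, stood at 66.5 and 116 CPM in CKO and 81.3 and 87.0 CPM in WT. Crot, which makes carnitine esters in peroxisomes, stood at 216 and 159 CPM in CKO and 236 and 149 CPM in WT. For Crot, replicate 1 was above replicate 2 in both groups, and the groups overlapped. None of the 4 passed the test, with log2 changes from −0.04 to 0.62.

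The 9 genes of mitochondrial beta oxidation varied least: their log2 changes ran from −0.15 to 0.48 with a median of 0.20, and none passed the test. Acaa2, the thiolase of the mitochondrial matrix, stood at 199 and 351 CPM in CKO and 187 and 208 CPM in WT. Eci1, an enoyl-CoA isomerase for unsaturated chains, stood at 33.4 and 62.6 CPM in CKO and 36.4 and 33.3 CPM in WT. Decr1, the reductase of the same branch, stood at 61.0 and 126 CPM in CKO and 70.0 and 72.8 CPM in WT. In all 3, CKO replicate 1 lay near WT and CKO replicate 2 above it, with log2 changes of 0.48 (SE 0.33), 0.46 (SE 0.35) and 0.39 (SE 0.38). The acyl-CoA dehydrogenases, which carry out the opening step for medium, long and very long chains, differed less. Acadm stood at 141 and 114 CPM in CKO and 133 and 150 CPM in WT. Acadl stood at 75.6 and 93.3 CPM in CKO and 72.8 and 83.1 CPM in WT. Acadvl stood at 38.3 and 57.4 CPM in CKO and 34.9 and 47.2 CPM in WT. The groups overlapped for all 3 dehydrogenases. The 2 subunits of the trifunctional protein, which completes the cycle for long chains, had log2 changes of 0.07 for Hadha and 0.20 for Hadhb. Hadhb stood at 49.7 and 58.6 CPM in CKO and 48.8 and 45.3 CPM in WT, and 15.5% of its 90-base windows also occur in other annotated transcripts, so its counts are uncertain. Etfdh, which passes electrons from the dehydrogenases to the respiratory chain, stood at 61.8 and 66.4 CPM in CKO and 59.1 and 61.8 CPM in WT. Its log2 change of 0.08 had the smallest SE of the 34 genes, 0.18. CKO replicate 2 was the highest library for 8 of these 9 genes.

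The peroxisomal genes included the clearest case of a gene high in the other CKO library. Ehhadh (chr16:21761287-21787807, minus strand), the bifunctional enzyme of the classical peroxisomal pathway and a strong PPARα target in mice, stood at 120 and 43.4 CPM in CKO and 46.1 and 52.1 CPM in WT. CKO replicate 1 was 2.76-fold above CKO replicate 2, which was below both WT libraries, and the log2 change was 0.74 (SE 0.51). Acaa1b (chr9:119148023-119157093, minus strand), a peroxisomal thiolase, stood at 397 and 1257 CPM in CKO and 412 and 516 CPM in WT, a log2 change of 0.83 (SE 0.59). Here CKO replicate 2 was the high library, as it was for the sister thiolase Acaa1a at 39.0 and 90.5 CPM in CKO and 44.5 and 46.9 CPM in WT. The 2 thiolases share sequence, 21.4% of the 90-base windows of Acaa1b and 8.11% of those of Acaa1a, so the split of reads between them is uncertain. Hsd17b4, the D-specific bifunctional protein, stood at 205 and 312 CPM in CKO and 221 and 235 CPM in WT. None of the 4 genes passed the test.

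The 4 thioesterases, which release free fatty acids from acyl-CoA, lie side by side on chromosome 12 and had low counts. Acot1 (chr12:84009490-84018371, plus strand), the cytosolic form, had 25 and 20 UMIs in CKO and 21 and 4 in WT, or 5.29 and 5.74 CPM in CKO and 2.11 and 1.29 CPM in WT. Acot2 (chr12:83987861-83993873, plus strand), the mitochondrial form, stood at 5.93 and 4.88 CPM in CKO and 1.91 and 2.91 CPM in WT. In both, each CKO library lay above each WT library, and the log2 changes were 1.62 (SE 0.53) and 1.21 (SE 0.52). Neither passed the test, with an adjusted p of 0.9997 by edgeR for each. Acot4 (chr12:84038379-84048601, plus strand), a peroxisomal form, stood at 52.3 and 17.5 CPM in CKO and 23.8 and 18.1 CPM in WT. Acot3 (chr12:84052144-84060402, plus strand), also peroxisomal, had 59 and 6 UMIs in CKO and 13 and 6 in WT and fell under the count filter. Both peroxisomal forms were high in CKO replicate 1 alone, as Ehhadh was. Shared 90-base windows made up 13.5% of Acot1, 18.5% of Acot2 and 14.7% of Acot3, so reads may have been split among these genes, against 0.670% of Acot4.

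The promoter of Acot4 is printed because it held a match to a tried pattern and the gene was high in CKO replicate 1. Fabp1, printed above, was high in CKO replicate 2. It covers the 250 bases at chr12:84038129-84038378, plus strand, RefSeq GRCm38.p6. Capitals mark an E-box, CACGTG, the letters bound by the clock factors BMAL1 and CLOCK among others, which occurred in 7.15% of RefSeq promoters. The same letters were found in the promoters of Fgf21, Plin2 and Slc27a1, each highest in CKO replicate 2 (Fgf21 on 0 to 11 UMIs). They were not found for Ehhadh, Acot3, Cd36 or Pdk4, which were also high in CKO replicate 1. The D-box TTATGNAA, in 3.38% of all promoters on either strand, was found in none of the 32 matched genes. A match in letters does not show binding, and a link to the clock genes was not tested.
Acot4: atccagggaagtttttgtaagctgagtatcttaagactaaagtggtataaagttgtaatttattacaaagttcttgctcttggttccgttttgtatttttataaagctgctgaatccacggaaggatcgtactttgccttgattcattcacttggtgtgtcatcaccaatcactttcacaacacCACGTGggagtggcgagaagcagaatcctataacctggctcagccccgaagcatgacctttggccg

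Among the genes of lipid droplets and other targets, the 2 perilipins differed in opposite directions. Plin2, which coats lipid droplets, stood at 112 and 238 CPM in CKO and 111 and 101 CPM in WT. Plin5, which links droplets to mitochondria in oxidative tissues, stood at 20.3 and 33.0 CPM in CKO and 27.9 and 68.9 CPM in WT. The gap for Plin2 came with CKO replicate 2 and that for Plin5 with WT replicate 2. Their log2 changes were 0.72 (SE 0.40) and −0.85 (SE 0.52). Vnn1, a pantetheinase and PPARα target in mouse liver, stood at 4.45 and 9.77 CPM in CKO and 5.72 and 4.21 CPM in WT, a log2 change of 0.48 (SE 0.55). The secreted lipase inhibitor Angptl4 stood at 17.1 and 52.3 CPM in CKO, around the WT values of 31.0 and 45.6 CPM. Pdk4, a kinase that turns off pyruvate dehydrogenase, stood at 16.7 and 4.02 CPM in CKO and 7.42 and 8.09 CPM in WT. As with Cd36, its high library was CKO replicate 1. Bdh1, the last enzyme of ketone body synthesis, stood at 79.8 and 208 CPM in CKO and 129 and 110 CPM in WT. Fgf21, the fasting hormone, had 0 and 4 UMIs in CKO and 11 and 1 in WT and was not tested. None of the 6 tested genes passed the test.

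Because the CKO libraries differed, the fit was repeated without each library in turn. The group left with 1 library is then assumed to vary like the other, so these fits describe that library beside its reference. Without CKO replicate 1, 167 of 13231 genes (1.26%) were called, among them 1 of the 34, Fabp1, with a log2 change of 2.87 (SE 0.27, adjusted p = 0.0151). The median over the 34 was then 0.65. Without CKO replicate 2, 228 of 13766 genes (1.66%) were called, among them 4 of 36, and the median was −0.08. These were Ehhadh at 1.30 (SE 0.21, adjusted p = 0.0251), Acot3 at 3.04 (SE 0.53, adjusted p = 0.0332), Acot4 at 1.30 (SE 0.24, adjusted p = 0.0405) and Ppargc1a at −1.33 (SE 0.23, adjusted p = 0.0332), all by edgeR. No gene was called when a WT library was left out. Fabp1 was thus called high in CKO replicate 2 only, and Ehhadh, Acot3 and Acot4 high in CKO replicate 1 only. Ppargc1a was lower in both CKO libraries, with a log2 change of −1.09 and an adjusted p of 0.0884 by edgeR when CKO replicate 1 was left out.

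**Figure D2:**
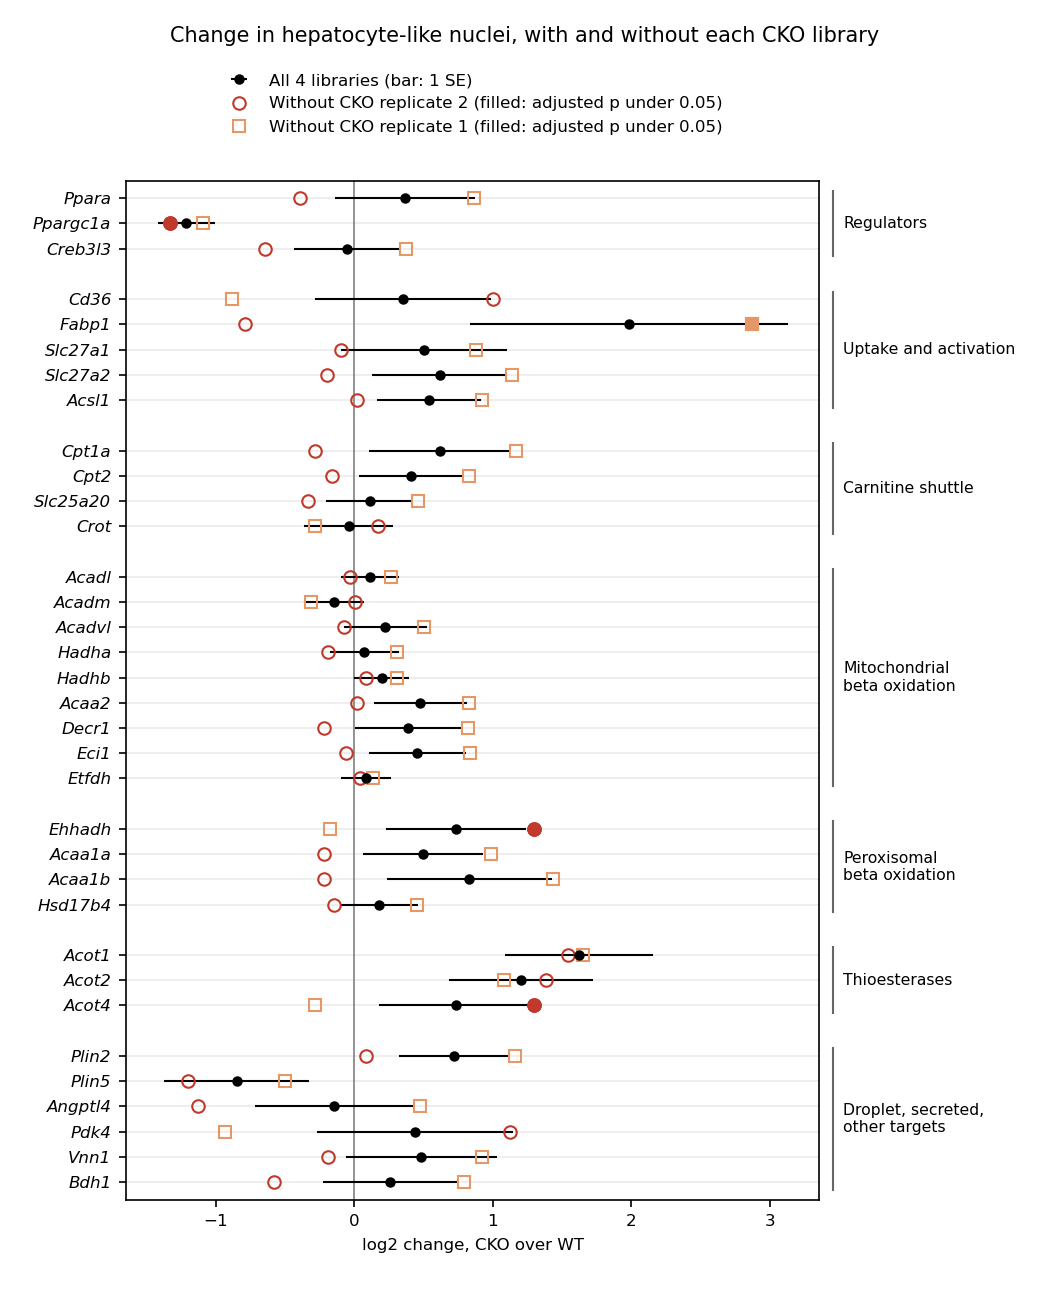
Log2 change, CKO over WT, of the 34 tested genes in hepatocyte-like nuclei (horizontal axis) with all 4 libraries (black, bar of 1 SE), without CKO replicate 2 (circles) and without CKO replicate 1 (squares), filled where the adjusted p was under 0.05. For Fabp1 the change is 2.87 without CKO replicate 1 and −0.79 without CKO replicate 2, while for Ppargc1a it is −1.09 and −1.33.

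Other gene groups set the same libraries apart, and their part in the values above was not tested. Of 14 tested circadian clock genes, whose levels in liver follow the hour of day and food intake, 9 were lowest in CKO replicate 1 and 7 highest in CKO replicate 2. Arntl, which encodes BMAL1, stood at 88.3 and 8.04 CPM in CKO and 20.9 and 42.1 CPM in WT. The output gene Dbp stood at 3.39 and 85.6 CPM in CKO and 25.3 and 17.5 CPM in WT, and Nr1d1 at 1.91 and 42.5 CPM in CKO and 14.2 and 11.3 CPM in WT. The CKO libraries lay on opposite sides of WT for all 3, and none of the 14 genes was called between CKO and WT. All 7 tested male-biased liver genes, such as Cyp4a12a, were lowest in CKO replicate 1 and highest in CKO replicate 2. The summed level over the list was 643 and 7582 CPM in CKO and 4788 and 5291 CPM in WT. Most of that sum was 1 gene, Mup20, at 388 and 6048 CPM in CKO and 4189 and 4682 CPM in WT. A list of fasting and feeding genes, none of its 12 tested members called, summed to 1995 and 3339 CPM in CKO and 3050 and 4095 CPM in WT. The female-biased list summed to 684 and 3.73 CPM in CKO and 138 and 80.9 CPM in WT. Xist had 3 to 6 UMIs and Uty 604 to 2325 UMIs per library, as the male label gives. The summed nonparenchymal markers stood at 959 and 443 CPM in CKO and 966 and 554 CPM in WT, with 4 and 9 of 75 markers at 0 in CKO and 1 and 10 in WT. These sums followed the replicate number and not the genotype.

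**Figure D3:**
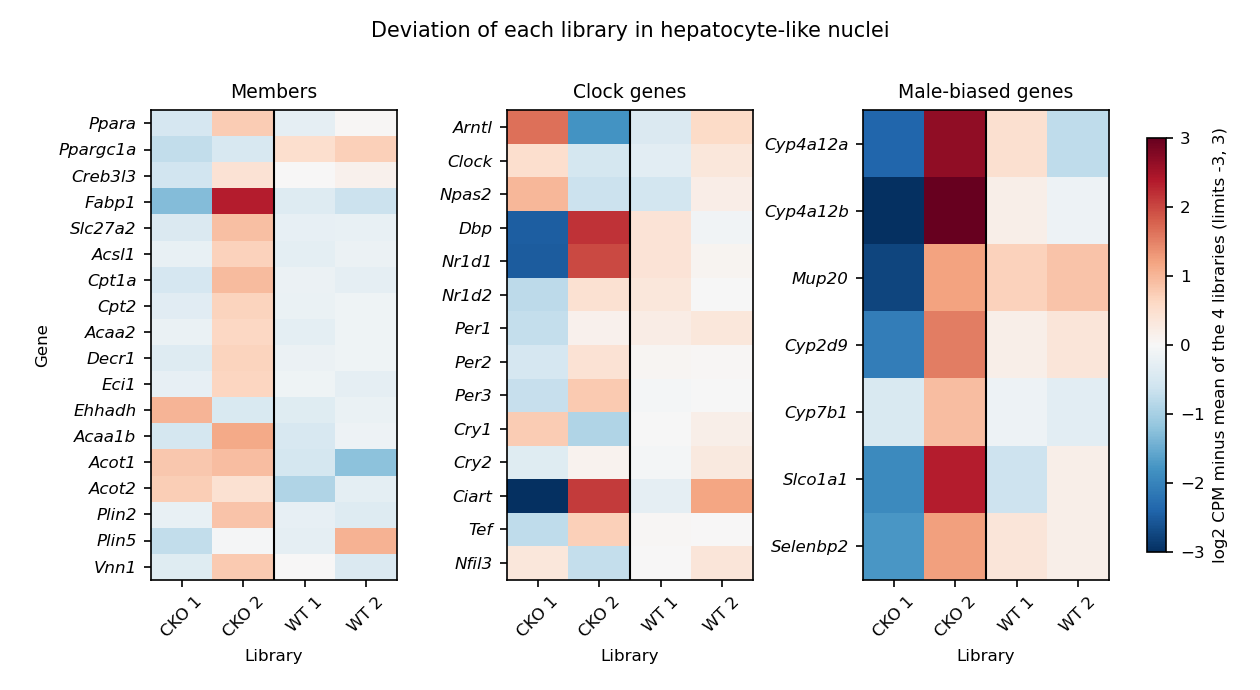
Log2 CPM of each library minus the mean of the 4 libraries in hepatocyte-like nuclei (colour, limits −3 and 3) for 18 of the 37 genes and for the clock and male-biased lists, with CKO left of WT. The male-biased genes are lowest in CKO replicate 1 and highest in CKO replicate 2 throughout, and Fabp1 and Acaa1b are also highest in CKO replicate 2.

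A longer list of 59 other PPARα and fatty acid oxidation genes behaved alike in its counts. Of the 57 tested in hepatocyte-like nuclei, none was called by edgeR, 7 had an unadjusted p under 0.05, and 48 had a positive log2 change, with a median of 0.32. CKO replicate 2 was the highest library for 34 of the 57 and CKO replicate 1 for 13. The summed level of the list was 7617 and 12175 CPM in CKO and 7569 and 7622 CPM in WT, so only CKO replicate 2 stood apart. The omega-hydroxylase gene Cyp4a10, a sensitive PPARα target in mice, was an exception: it stood at 25.8 and 19.2 CPM in CKO and 2.21 and 3.56 CPM in WT. Its log2 change of 3.02 (SE 0.40) had an adjusted p of 0.9997 by edgeR, and both CKO libraries were high. Slc27a5, the bile acyl-CoA synthetase, stood at 96.1 and 125 CPM in CKO and 66.7 and 54.0 CPM in WT. Acsl5, a further acyl-CoA synthetase, stood at 225 and 244 CPM in CKO and 110 and 157 CPM in WT. Pctp, a phosphatidylcholine transfer protein, stood at 45.9 and 45.4 CPM in CKO and 30.7 and 31.1 CPM in WT. Acadsb, a dehydrogenase for short branched chains, stood at 64.6 and 69.5 CPM in CKO and 44.8 and 48.2 CPM in WT. In these 4 genes the CKO replicates were close and above both WT replicates, with log2 changes of 0.87 (SE 0.24), 0.82 (SE 0.26), 0.56 (SE 0.19) and 0.53 (SE 0.19). Fabp2, the intestinal binding protein, had a log2 change of 1.89 (SE 0.62). Of the 57 genes, 16 lay above WT in both CKO libraries and 1 below, beside the 12.4% and 13% of all genes given above.

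Hepatocyte RNA was found in barcodes of every kind, so the levels of the 37 genes in hepatocyte-like nuclei were set against the 10% of barcodes with the fewest UMIs, over all 4 libraries with the library as a block. Of 35 genes tested, 6 were higher in hepatocyte-like nuclei and 19 lower, where 34.3% of all genes were higher and 35.8% lower. The median log2 difference was −0.70, against 0.01 over all genes. These differences are TMM-scaled and lie below those that the plain CPM printed here would give. Cpt1a, for example, stood at 171, 419, 222 and 192 CPM (CKO 1, CKO 2, WT 1, WT 2) in hepatocyte-like nuclei. It stood at 106, 213, 139 and 102 CPM in the barcodes with the fewest UMIs. The DESeq2 fit called 5 higher and 16 lower, with a median of −0.62. The counts of higher and lower genes may therefore depend on the scaling. Ppara was 2.28 (SE 0.17) higher on the log2 scale: it stood at 934, 2006, 1147 and 1286 CPM in hepatocyte-like nuclei (CKO 1, CKO 2, WT 1, WT 2) and at 89.6, 384, 193 and 175 CPM in the barcodes with the fewest UMIs. Ppargc1a was 1.34 (SE 0.20) higher, at 53.9, 56.9, 131 and 138 CPM against 11.7, 38.7, 31.5 and 33.8 CPM. These 2 regulators, with Slc25a20, Pdk4, Acsl1 and Cpt1a, were the genes that were higher in hepatocyte-like nuclei. Cpt1a, at 0.30, did not pass without CKO replicate 1 (edgeR adjusted p = 0.0831), WT replicate 1 (0.104) or WT replicate 2 (0.0529), nor did Pdk4, at 0.93, without WT replicate 1 (0.0654). The enzymes of the mitochondrial cycle went the other way, with 8 of 9 lower and none higher. Acadvl, for example, stood at 39.6, 52.9, 37.6 and 46.1 CPM against 67.6, 152, 90.6 and 81.9 CPM, a log2 difference of −1.61 (SE 0.14). Fabp1 had the largest deficit together with Acot2, −1.94 (SE 0.14), at 152, 1723, 299 and 227 CPM against 385, 4339, 907 and 595 CPM. The gap between CKO replicates for Fabp1 was therefore present in both kinds of barcode. In the barcodes with the fewest UMIs, 0.776% to 4.91% of UMIs in CKO and 0.531% to 2.03% in WT were mitochondrial, above the values in the hepatocyte-like nuclei of each library.

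Hepatocyte-like nuclei of each library were then ranked by the share of pericentral among pericentral and periportal marker UMIs. Pericentral nuclei, the third with the highest share, were set against periportal nuclei, the third with the lowest share in the same library. Of 30 genes tested, 2 were higher in pericentral nuclei, where 2.93% of all genes were higher, and 1 was lower, where 3.55% of all genes were lower. Acaa1b stood at 515, 1378, 511 and 623 CPM in pericentral nuclei (CKO 1, CKO 2, WT 1, WT 2) and at 337, 966, 390 and 432 CPM in periportal nuclei, a log2 difference of 0.51 (SE 0.07) with an edgeR adjusted p of 5.88e-07. Pdk4 stood at 27.0, 6.83, 12.5 and 13.6 CPM against 13.4, 2.50, 5.67 and 5.75 CPM, a log2 difference of 1.12 (SE 0.25) with an edgeR adjusted p of 0.00181. Pdk4 rested on 9 to 39 UMIs per library in pericentral and 3 to 22 in periportal nuclei. Ppargc1a was lower in pericentral nuclei by a log2 difference of −0.54 (SE 0.09) with an edgeR adjusted p of 4.06e-05, at 45.8, 49.4, 99.9 and 117 CPM against 63.6, 69.2, 154 and 160 CPM. In all 3 genes every library showed the same direction, but Pdk4 had too few counts to be tested without CKO replicate 1. By DESeq2 only Acaa1b was called, with adjusted p of 0.0636 for Ppargc1a and 0.285 for Pdk4. Acsl1 and Fabp1 were next, with log2 differences of 0.22 (SE 0.08, edgeR adjusted p = 0.0900) and 0.20 (SE 0.08, edgeR adjusted p = 0.152), and did not pass. Each of these passed without 1 library: Fabp1 at 0.28 (edgeR adjusted p = 0.0120) without CKO replicate 2, Acsl1 at 0.30 (edgeR adjusted p = 0.0413) without WT replicate 2, and also Ehhadh at 0.48 (edgeR adjusted p = 0.0168) without WT replicate 1.

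Zone markers were also compared between the groups, and none of the 9 pericentral or 11 periportal markers was called by edgeR between CKO and WT, with 3 and 1 at an unadjusted p under 0.05. The median share of pericentral among zone marker UMIs was 0.273 and 0.25 in CKO and 0.130 and 0.0909 in WT hepatocyte-like nuclei. The summed level of the pericentral markers was 970 and 1366 CPM in CKO and 726 and 534 CPM in WT, and that of the periportal markers was 2093 and 3395 CPM in CKO and 3077 and 3931 CPM in WT. The periportal sums overlapped between the groups, and the shares and the pericentral sums did not; their part in the CKO values was not tested. With pericentral nuclei alone the median log2 change of the tested genes, CKO over WT, was 0.38, and with periportal nuclei alone it was 0.19, against 0.40 in all hepatocyte-like nuclei. These fits do not compare matched zones, because the limits were set within each library: pericentral nuclei began at a share of 0.367 and 0.345 in CKO and 0.20 and 0.143 in WT, and periportal nuclei ended at 0.186 and 0.167 in CKO and 0.0882 and 0.0588 in WT. The difference between zones was not called different between CKO and WT for any of the 30 genes: edgeR's interaction test called none of them, 2 had an unadjusted p under 0.05, and it called 7 of 10028 genes (0.0698%). Ehhadh was among the 2, at 0.74 (SE 0.21, edgeR adjusted p = 0.475).

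**Figure D4:**
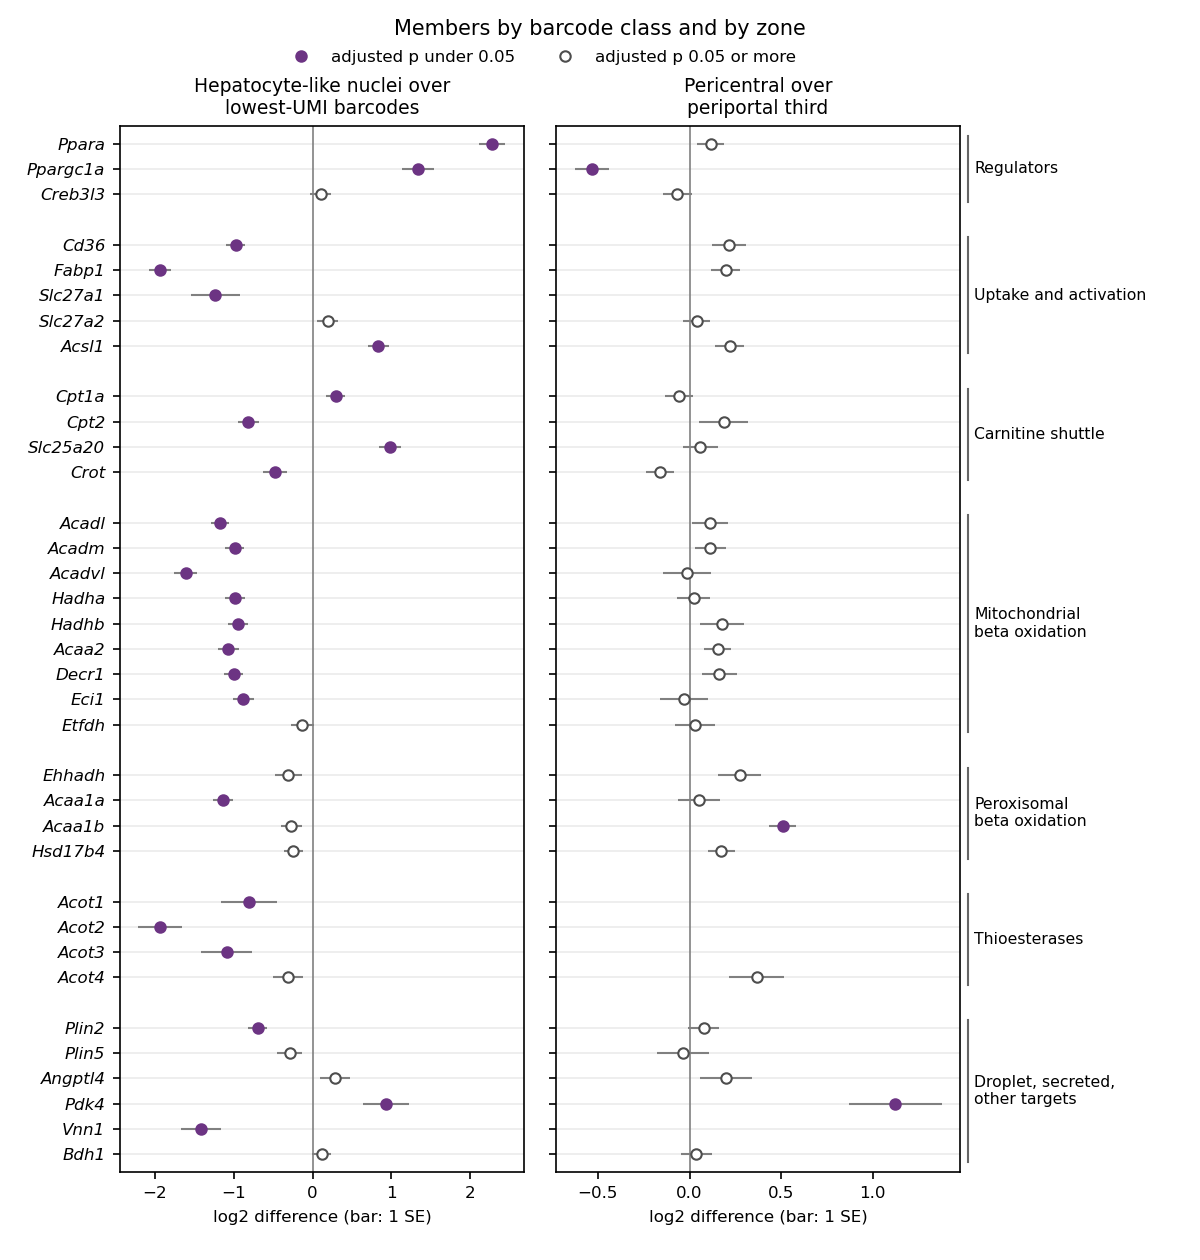
Log2 differences (horizontal axes, bars of 1 SE) of the tested genes among the 37 between hepatocyte-like nuclei and the barcodes with the fewest UMIs (left) and between pericentral and periportal nuclei (right), filled where the adjusted p was under 0.05. Ppara and Ppargc1a lie at 2.28 and 1.34 on the left, the mitochondrial enzymes lie below 0, and on the right Acaa1b, Pdk4 and Ppargc1a are filled.

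Classes of nonhepatocyte nuclei were taken by their markers: 2157 endothelial-like, 995 mesenchymal-like, 983 macrophage-like and 1025 cholangiocyte-like nuclei, with the last too few in CKO replicate 2, at 17, for the tests between classes and between groups. They enter the comparison with the barcodes with the fewest UMIs, and the tests between classes only as an alternative. Levels of each class were set against the mean of the other 2 nonhepatocyte classes. Of 29 genes tested, 3 were higher in endothelial-like nuclei, Cd36, Ppara and Hadha (background 10.6% higher). None was lower there (background 12.3% lower). In mesenchymal-like nuclei none was higher (background 14.6%) and 1, Cd36, was lower (11.9%). In macrophage-like nuclei 2 were higher, Cd36 and Plin2 (background 13.2%), and 1, Ppara, was lower (15.3%). In none of the 3 classes was the share of the 29 genes called above that of all genes.

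Cd36 (chr5:17781690-17888801, minus strand), which is also a scavenger receptor of macrophages and microvascular endothelium, passed the test in all 3 classes. It stood at 284, 119, 250 and 185 CPM in endothelial-like nuclei (CKO 1, CKO 2, WT 1, WT 2), at 335, 81.5, 251 and 230 CPM in macrophage-like nuclei, and at 138, 51.4, 71.6 and 52.4 CPM in mesenchymal-like nuclei. The barcodes with the fewest UMIs had 232, 48.4, 159 and 98.3 CPM. In every library the endothelial-like and macrophage-like values lay above the mesenchymal-like value. In CKO replicate 2 these rested on 37 endothelial-like, 6 macrophage-like and 7 mesenchymal-like UMIs. The log2 differences from the mean of the other classes were 0.69 (SE 0.13) in endothelial-like, 0.76 (SE 0.13) in macrophage-like and −1.45 (SE 0.15) in mesenchymal-like nuclei. Plin2, at 181, 177, 208 and 123 CPM, was 0.51 (SE 0.14, edgeR adjusted p = 0.00466) higher in macrophage-like nuclei, where lipid droplets can also form. It was above the other 2 classes in 3 of the 4 libraries; in CKO replicate 2 the endothelial-like and mesenchymal-like nuclei, at 184 and 301 CPM, and the barcodes with the fewest UMIs, at 240 CPM, were above the macrophage-like value. Ppara was 0.43 (SE 0.14, edgeR adjusted p = 0.0209) higher in endothelial-like and lower by a log2 difference of −0.51 (SE 0.16, edgeR adjusted p = 0.0143) in macrophage-like nuclei. The endothelial call for Ppara was lost without CKO replicate 2 (0.29, edgeR adjusted p = 0.165) or WT replicate 1 (0.50, edgeR adjusted p = 0.121), and the macrophage call without CKO replicate 2, WT replicate 1 or WT replicate 2 (edgeR adjusted p = 0.0744, 0.0629 and 0.0978). Hadha was 0.34 (SE 0.12, edgeR adjusted p = 0.0417) higher in endothelial-like nuclei, a call lost without CKO replicate 2, WT replicate 1 or WT replicate 2 (edgeR adjusted p = 0.0733, 0.0778 and 0.215). Plin2 in macrophage-like nuclei did not pass without WT replicate 1 (0.22, edgeR adjusted p = 0.586).

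The barcodes with the fewest UMIs were taken by UMIs alone, with doublets kept, and could include nuclei of a nonhepatocyte class. That overlap was not counted. Set against these barcodes in TMM-scaled fits, most of the tested genes were lower in each nonhepatocyte class. These counts too may depend on the scaling. Lower genes numbered 27 of 30 in cholangiocyte-like nuclei (background 38.2% lower) and 27 of 30 in endothelial-like nuclei (31.1%). They numbered 29 of 29 in mesenchymal-like (33.4%) and 18 of 30 in macrophage-like nuclei (22.8%). Without WT replicate 1 the counts of lower genes were 15 of 29 in endothelial-like and 8 of 31 in macrophage-like nuclei. Ppara was lower in all 4 classes by these fits, with log2 differences of −1.07, −0.33, −0.60 and −0.91 in that order. The endothelial difference was −0.18 without WT replicate 1 and did not pass. In plain CPM the direction for endothelial-like nuclei differed between libraries. Ppara stood there at 83.9, 477, 152 and 194 CPM (CKO 1, CKO 2, WT 1, WT 2). Its level in the barcodes with the fewest UMIs was 89.6, 384, 193 and 175 CPM. The genes above that level were Cd36 in endothelial-like nuclei at 0.37 (SE 0.12), Cd36 at 0.52 (SE 0.16) and Slc27a1 at 1.06 (SE 0.33) in macrophage-like nuclei, and Slc27a1 at 1.42 (SE 0.27) in cholangiocyte-like nuclei (backgrounds 19.1%, 21.4% and 24.7% higher). None was above it in mesenchymal-like nuclei (22.9% of all genes). Without WT replicate 1 the Cd36 call in endothelial-like nuclei was lost (0.44, edgeR adjusted p = 0.0560), as were those of Cd36 (0.50, edgeR adjusted p = 0.20) and Slc27a1 (1.16, edgeR adjusted p = 0.129) in macrophage-like nuclei. The macrophage call for Cd36 was also lost without WT replicate 2 (0.34, edgeR adjusted p = 0.117), while Slc27a1 in cholangiocyte-like nuclei passed without any 1 library. Slc27a1, which encodes the fatty acid transporter FATP1, stood at 23.5, 25.4, 37.1 and 38.3 CPM in cholangiocyte-like nuclei, from 10, 1, 85 and 15 UMIs. It stood at 17.7, 27.2, 26.7 and 15.3 CPM in macrophage-like nuclei, from 18, 2, 26 and 3 UMIs. In the barcodes with the fewest UMIs it stood at 9.66, 2.42, 11.4 and 2.05 CPM, from 29, 2, 34 and 2 UMIs. In each library both classes lay above these barcodes, but the second replicates rest on very few UMIs.

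**Figure D5:**
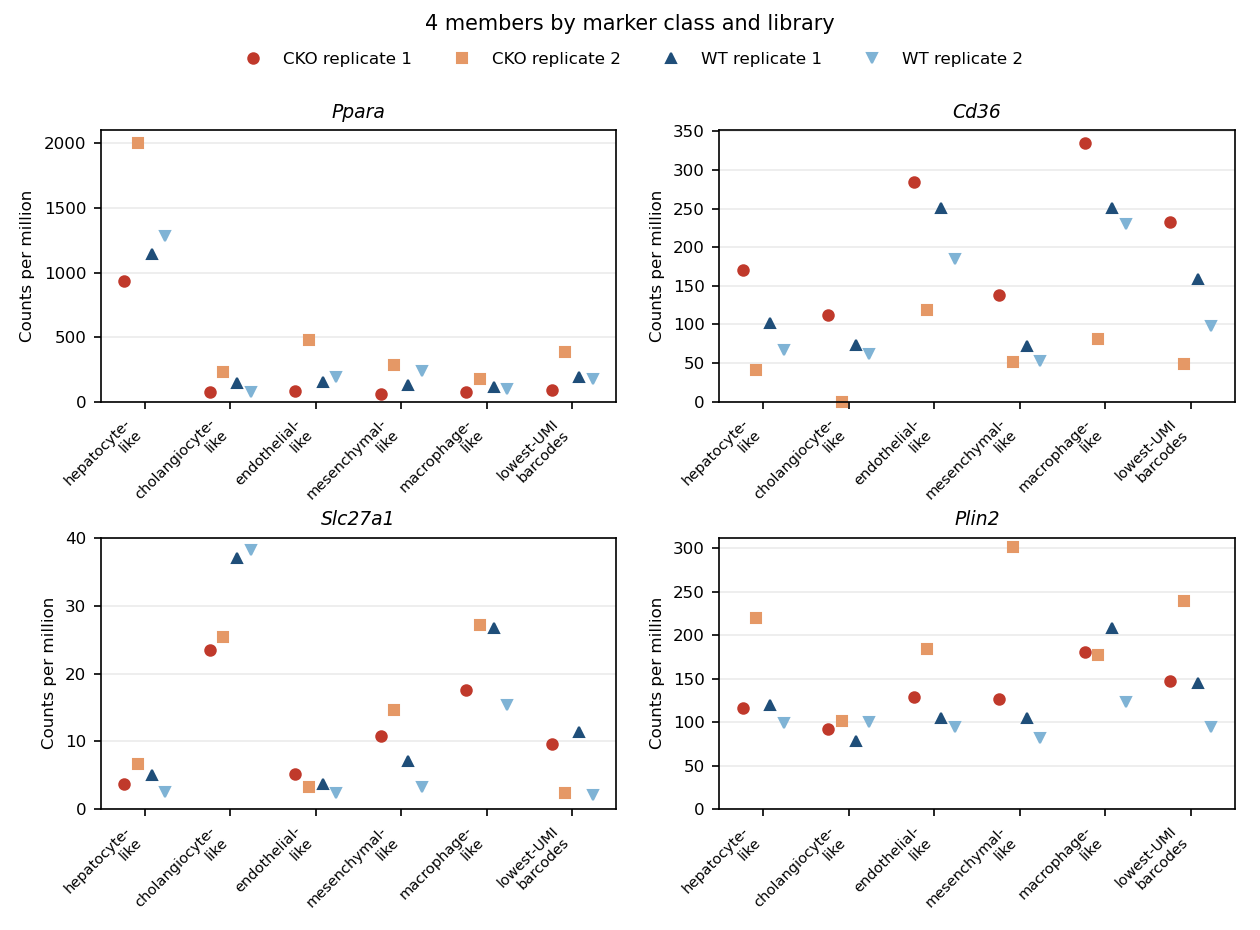
CPM (vertical axes) of Ppara, Cd36, Slc27a1 and Plin2 in each marker class and in the barcodes with the fewest UMIs, 1 symbol per library with CKO left of WT. Ppara is highest in hepatocyte-like nuclei at 934 to 2006 CPM, Cd36 in endothelial-like and macrophage-like nuclei, and Slc27a1 stands at 23.5 to 38.3 CPM in cholangiocyte-like nuclei.

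Between CKO and WT, none of the genes tested among the 37 was called in endothelial-like, mesenchymal-like or macrophage-like nuclei with all 4 libraries. Cholangiocyte-like and lymphocyte-like nuclei were not tested between the groups. In endothelial-like nuclei edgeR called 0 of 9145 genes (0%) and 0 of 29 of the set, while 333 genes and 5 of the set had an unadjusted p under 0.05, and the DESeq2 fit called 1 gene. In mesenchymal-like nuclei it called 0 of 7420 genes (0%) and 0 of 27, while 344 genes and 5 of the set had an unadjusted p under 0.05, and the DESeq2 fit called 1 gene. In macrophage-like nuclei it called 8 of 7507 genes (0.107%) and 0 of 30, while 450 genes and 3 of the set had an unadjusted p under 0.05, and the DESeq2 fit called none. In the barcodes with the fewest UMIs it called 0 of 10773 genes (0%) and 0 of 34, while 165 genes and 2 of the set had an unadjusted p under 0.05, and the DESeq2 fit called none.

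The 2 CKO libraries stood apart in these classes as they did in hepatocyte-like nuclei. Fabp1 stood at 314 and 3382 CPM in CKO and 625 and 390 CPM in WT endothelial-like nuclei, and at 323 and 3138 CPM in CKO and 612 and 445 CPM in WT macrophage-like nuclei. In the barcodes with the fewest UMIs it stood at 385 and 4339 CPM in CKO and 907 and 595 CPM in WT. In each of these, CKO replicate 2 was far above the other 3 libraries. In every library the endothelial-like and macrophage-like values lay below those of the barcodes with the fewest UMIs. Whether the gap arose within these classes was not tested. Without CKO replicate 1, edgeR called 11 genes of the set in endothelial-like (5.19% of all genes called), 6 in mesenchymal-like (2.25%), 4 in macrophage-like nuclei (1.01%) and 5 in the barcodes with the fewest UMIs (1.97%), all higher in CKO. Fabp1, Slc27a2 and Acsl1 were among them each time. Without CKO replicate 2 it called 3 in endothelial-like (2.58%), 3 in mesenchymal-like (1.87%), 1 in macrophage-like nuclei (1.72%) and 1 in the barcodes with the fewest UMIs (0.606%). Ehhadh was higher in CKO replicate 1 in all 4 of these. In the barcodes with the fewest UMIs Ehhadh stood at 106 and 58.1 CPM in CKO and 33.5 and 44.0 CPM in WT.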

How the data were processed

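The values are raw UMI counts per gene and barcode, deposited by the authors; reads were processed with Cell Ranger 5.0.1 against mm10, per the submitters' processing notes. Whether intronic reads were counted is not given in the sources used here. The chemistry was the 10x 3′ v3.1 kit, per the labels' protocols, so levels are not compared between genes. The 37 genes and all lists were chosen with earlier results of these data known.

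The barcodes with the highest Scrublet scores were removed as doublets (0.8% per 1000 barcodes), leaving 39017 of 43664. Hepatocyte-like nuclei are defined in the results; 508 of them lay near the marker limit and 305 barcodes just outside it. Other classes needed at least 3 UMIs from at least 2 markers of the class, 75% of nonparenchymal marker UMIs, and over 0.2% of all UMIs. Classes with under 20 nuclei in a library were not tested between groups, which left out cholangiocyte-like and lymphocyte-like nuclei. Counts were summed per library and class and tested with edgeR 4.0.16 (quasi-likelihood, TMM scaling, filterByExpr, two-sided) over all genes, with Benjamini-Hochberg adjustment and a threshold of 0.05. With 2 libraries against 2, an exact permutation test cannot go below 0.333, so none was run. CPM in hepatocyte-like nuclei between CKO and WT are TMM-scaled; CPM by class and zone are plain. Libraries, not nuclei, are the replicates, and low counts limit the precision of Acot1, Acot2, Pdk4 and Slc27a1.

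Named genes are the regulators and, per role group, the 2 (3 in groups of 6 or more) with the smallest p; others named were chosen after their values were seen. The comparison with the barcodes with the fewest UMIs was also added after seeing the data. Those barcodes were taken before doublets were removed and could include nuclei of a nonhepatocyte class. Coordinates are from GENCODE vM21 (GRCm38), and promoters are from RefSeq. DESeq2 1.42.0, other gates, filters and scalings, and leaving out each library were the alternatives. The fits were tested on simulated counts.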

Additional observations from a re-analysis of the deposited data

How the results depend on the processing

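In hepatocyte-like nuclei, none of the genes was called under any other gate, count filter, scaling, zone restriction or tool tried, and the median log2 change stayed between 0.19 (periportal nuclei alone) and 0.50 (at least 2000 UMIs). Leaving out each library gave 0 to 4 genes called and medians from −0.084 to 0.65; the cause was not tested. With replicate number as a block, 0 genes were called and the median was 0.27; the labels do not pair the libraries, and deviations of same-numbered libraries correlated at 0.29. Called counts over the libraries left out ranged 0 to 11 in endothelial-like, 0 to 6 in mesenchymal-like and 0 to 4 in macrophage-like nuclei, and 0 to 5 in the barcodes with the fewest UMIs. They ranged 2 to 4 for zone, 1 to 3 for endothelial and macrophage levels, 4 to 8 higher and 17 to 20 lower for hepatocyte-like nuclei over the barcodes with the fewest UMIs, 0 to 1 for endothelial and 0 to 2 for macrophage classes over them. Zone calls fell to 1 by DESeq2. With the cholangiocyte class added, 7 of 30 genes tested were higher in endothelial-like nuclei, against 1181 of 7807 over all genes. That share was above the share over all genes, unlike in the main fit, and the added class had 17 nuclei in CKO replicate 2. With a 90% marker share, 1 of 21 tested was higher, against 463 of 4445 over all genes. That limit left 14 macrophage-like nuclei in CKO replicate 2 and so compared the endothelial-like with the mesenchymal-like class alone. Changes of sign with a library left out spanned Ppara −0.39 to 0.87, Creb3l3 −0.64 to 0.37, Fabp1 −0.79 to 2.87, Slc27a2 −0.20 to 1.14, Cpt1a −0.28 to 1.17, Cpt2 −0.16 to 0.83, Eci1 −0.057 to 0.84, Decr1 −0.22 to 0.82, Ehhadh −0.17 to 1.30, Acaa1b −0.22 to 1.44 and Vnn1 −0.19 to 0.93. Creb3l3 was 0.016 with at least 2000 UMIs and 0.028 with markers up to 0.5%, and Acadl in mesenchymal-like nuclei 0.12 with the 90% share (over endothelial-like nuclei alone). Over all genes, no count filter gave 40 calls and DESeq2 2, against 0. Having 2 libraries a group and low UMIs (Acot1, Acot2, Pdk4, Slc27a1) limit precision.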
